A study of Mus musculus with 64 samples.

Results

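Cells with a KLRG1-positive innate lymphoid phenotype were described in the colon of mice in a T cell transfer colitis model. They were chosen by antibody counts alone: high CD90.2, KLRG1 above its threshold, and CD3, CD4, CD11b, CD11c and CD64 each at or below theirs. The counts of 11 antibodies in each cell were turned into centred log ratios, for which 1 is added to each count, the natural log is taken and the average of these logs in that cell is subtracted. A value of 0 is thus a protein at the geometric mean of that cell's panel. CD90.2 had to exceed 2.035 and KLRG1 -0.589, while the limits were -0.155 for CD3, 0.652 for CD4, 0.712 for CD11b, 0.497 for CD11c and 0.105 for CD64. The rule found 9371 members among 130442 cells, or 7.18%. The levels of these 7 proteins therefore describe how the cells were chosen and are not findings. CD127, CD103, Ly-6C and Ly-6G were not used and are the 4 proteins whose levels were tested. Tests against week were also made on shares of cells, which depend on the rule's thresholds.

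Innate lymphoid cells are tissue lymphocytes without an antigen receptor that react to cytokines from the epithelium and from myeloid cells. Group 2 innate lymphoid cells of the mouse gut commonly carry CD90.2, the interleukin-7 receptor CD127 and KLRG1, a lectin-like receptor that binds cadherins. KLRG1 is also found on mature natural killer cells and on activated T cells, and the panel held no natural killer cell marker, so these kinds cannot be told apart here. Interleukin-12 and interleukin-23 share the p40 subunit and act on natural killer cells and on group 1 and group 3 innate lymphoid cells.

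All 9 libraries came from BALB/c SCID mice, hosts without functional T and B lymphocytes of their own that keep their innate lymphoid cells. All carry the label of a CD45RBhi transfer, that is of naive T cells, which expand in such hosts and cause colitis. The labels do not say whether the week 0 animals had received the cells when tissue was taken, and that library held 1 CD3+CD4+ cell. One library was made at week 7 after anti-IL-12p40, a neutralising antibody started on day 10, and 8 came from untreated mice at weeks 0 to 7, with tissue taken every 7 days. Each library was 1 pool of 3 animals, sorted as EpCAM-negative and CD45-positive cells, with about 16000 cells loaded. The sources used here give no age, and with 1 pool per condition the spread between pools is unknown.

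The libraries held 12914066 to 28723452 antibody counts, with medians of 576.5 to 1566 per cell. In the untreated libraries the median per cell had a rank correlation of 0.643 with week (exact permutation p = 0.0962; Pearson r = 0.637, exact p = 0.0909). Pairs of libraries shared 30 to 110 barcodes, and 295 members had a barcode that also occurred in another library. Doublets were not removed. Intervals of shares are exact Clopper-Pearson 95% intervals, those of ratios are 95% intervals on the log scale, and both cover counting error only.

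The rule itself set the members' CD90.2 and KLRG1 above, and their CD3, CD4, CD11b, CD11c and CD64 at or below, its thresholds. Counts of these proteins are given as a description and do not test the label. CD127 is the label's only marker outside the rule, and the members' CD127 counts did not set them apart from other cells. Their median KLRG1 count was 63 in the treated library and 26 to 76 in the untreated ones, against 0 to 3 in cells that met every other condition but lacked KLRG1. These KLRG1-negative counterparts, 8486 cells, are the closest population and the one against which the members were read. Median CD3, the signalling chain of the T cell receptor, was 1 to 7 counts in members over the 9 libraries, against 36 to 70 in CD3+CD4+ cells. Median CD4 was 1 to 9 counts in members, against 144 to 276 in those T cells. Median CD11b, CD11c and CD64, proteins of myeloid cells, did not exceed 9, 10 and 7 counts in members of any library. The cells that carry those proteins had medians of at least 117 for CD11b, 49 for CD11c and 27 for CD64.

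CD127 is the receptor through which interleukin-7 keeps lymphocytes alive. Members had a median of 9 CD127 counts in the treated library, and 13, 7, 5, 13, 7.5, 9, 7.5 and 9 counts at untreated weeks 0 to 7. CD3+CD4+ cells had 9 counts in the treated library and 10, 5, 2, 10, 8, 10, 9 and 13 counts in the untreated ones. CD3-CD64+ cells, the phenotype of macrophages, had 7 counts in the treated library and 19, 6, 2, 14, 3, 6, 7 and 8 counts at untreated weeks 0 to 7. The ranges of the lymphoid and the macrophage phenotype overlapped, and at weeks 0 and 3 the macrophage phenotype had more CD127 counts than the members. As a centred log ratio, which is relative to the other proteins of the cell, the members' CD127 was -0.06 in the treated library and -0.71 to -0.02 in the untreated ones. On that scale macrophage phenotype cells had -0.98 in the treated library and -1.99 to -0.91 in the untreated ones, without overlap, and CD3+CD4+ cells had -0.67 and -1.48 to -0.51, which overlapped with the members.

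Members were abundant in the early colon and scarce in the later weeks. Weeks 0 to 7 yielded 3113, 2750, 1640, 583, 104, 97, 56 and 28 of them. Their share of all cells was 18.6% (18.0 to 19.2) in week 0 and 21.8% (21.1 to 22.5) in week 1. Weeks 2 and 3 had 7.82% (7.46 to 8.19) and 4.64% (4.28 to 5.03). Weeks 4 and 5 had 0.581% (0.475 to 0.703) and 0.698% (0.566 to 0.851). Weeks 6 and 7 had 0.491% (0.371 to 0.637) and 0.235% (0.156 to 0.340). Weeks 0 and 1 stood highest, weeks 4 to 7 together held 285 members, and the week 1 share was 92.8 times that of week 7.

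This decline passed a rank correlation test with an exact permutation p taken over all 40320 orders of the 8 untreated libraries (Spearman rho = -0.952, exact p = 0.00114). Adjusted by Benjamini-Hochberg over 9 exclusive phenotypes the exact p was 0.0103, and Pearson r was -0.874 (exact p = 0.00149, adjusted p = 0.00506). Of the 9 phenotypes into which all cells were divided, 6 passed at 0.05 (66.7%), and 4 of them fell (44.4%), so that a falling share was common here. The counterparts were 1 of the 4, with rho = -0.857 (exact p = 0.0107, adjusted p = 0.0277). Over weeks 1 to 6 alone the members' rho was -0.943 (exact p = 0.0167) and Pearson r -0.852 (exact p = 0.00833). The call was lost when week 2 (adjusted exact p = 0.0607) or week 7 (adjusted exact p = 0.0554) was left out, with rho no weaker than -0.929 when any 1 week was left out.

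A share of all cells falls as T cells accumulate, and CD3+CD4+ cells made up 87.6% of the week 7 library. Among CD3- cells alone, members made up 18.7%, 23.5% (22.7 to 24.3), 13.3% and 12.1% in weeks 0 to 3. In weeks 4 to 7 they made up 1.3%, 2.46%, 1.11% and 1.97%. The 4 early weeks lay above the 4 late ones without overlap, and the widest step lay between weeks 3 and 4. On this denominator the ratio of week 1 to week 7 was 11.9, against 92.8 over all cells. The relation with week passed, with rho = -0.857 (exact permutation p = 0.0107, adjusted p = 0.0214) and Pearson r = -0.90 (exact p = 0.00392, adjusted p = 0.00784). Over weeks 1 to 6 alone, rho was -0.943 (exact p = 0.0167) and Pearson r -0.925 (exact p = 0.00833). This call was lost when week 1 or week 2 was left out (adjusted exact p = 0.0663 for both).

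**Figure D1:**
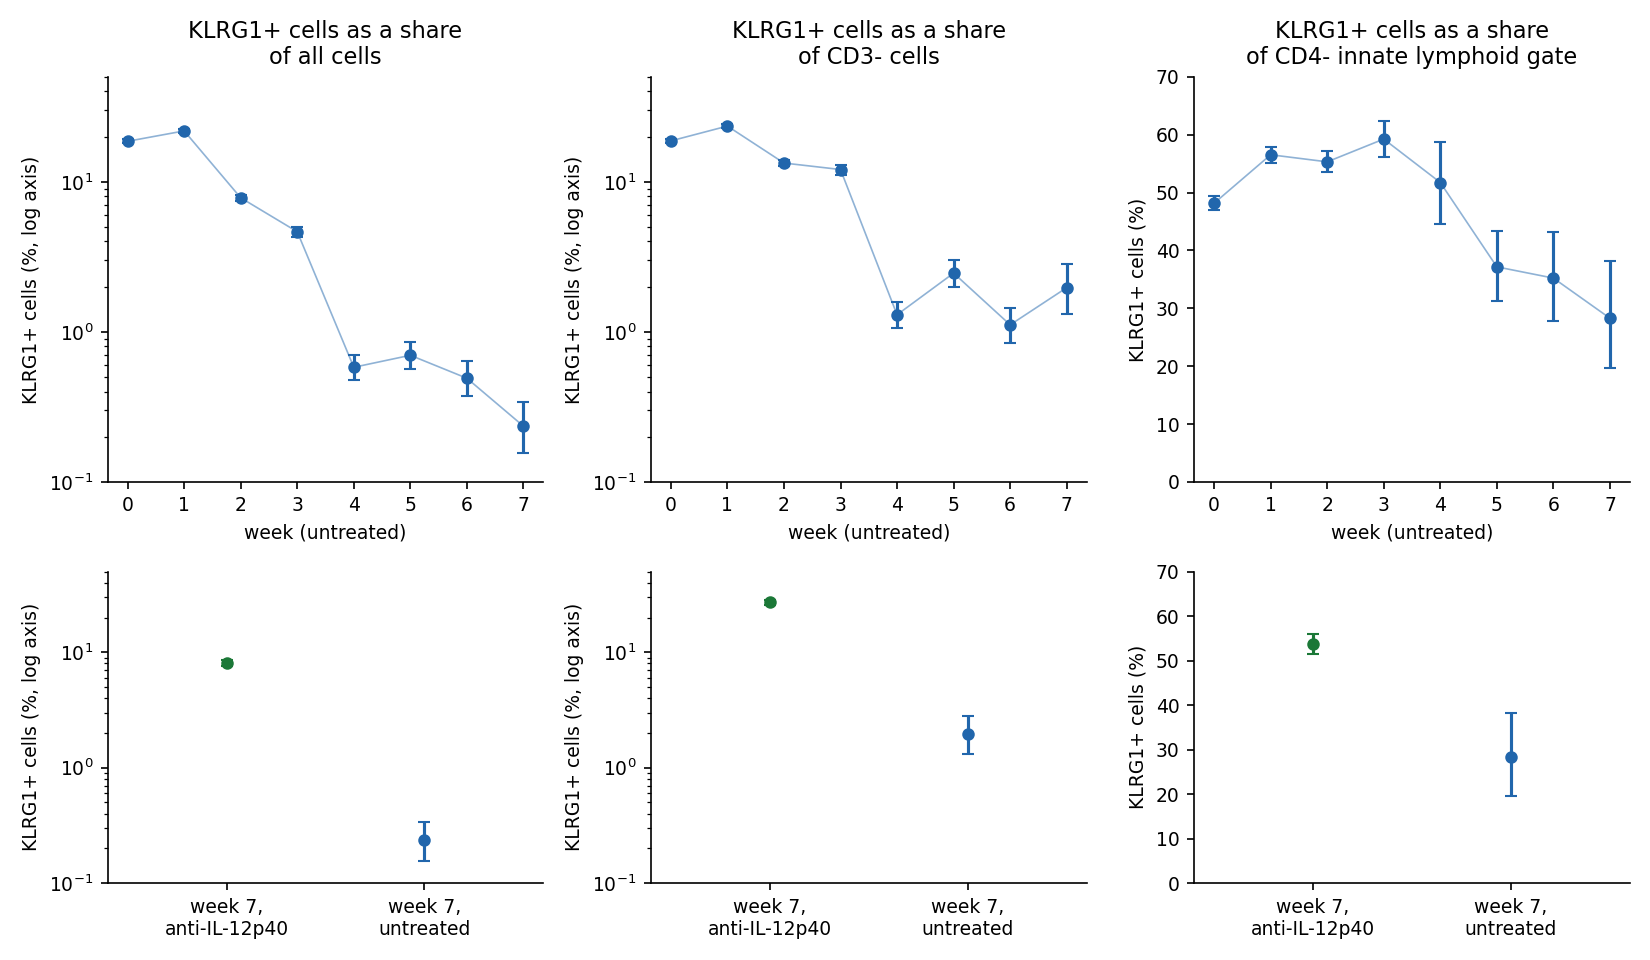
KLRG1+ innate lymphoid phenotype cells as a percent of all cells (left, log axis), of CD3- cells (middle, log axis) and of CD4- innate lymphoid phenotype cells (right), by week in untreated mice (top, 8 libraries) and at week 7 with and without anti-IL-12p40 (bottom). Points are single libraries and bars exact 95% binomial intervals for counting error. The share of all cells is 21.8% at week 1 and 0.235% at untreated week 7, and 8.04% at treated week 7.

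The balance between members and counterparts moved less. It was read at the rule's own KLRG1 threshold, so its tests depend on where that threshold lies. Of the CD4- innate lymphoid phenotype, members and counterparts together, 48.2%, 56.5%, 55.3% and 59.2% were KLRG1+ in weeks 0 to 3. In weeks 4 to 7 the values were 51.7%, 37.2%, 35.2% and 28.3% (19.7 to 38.2). Weeks 5 to 7 were the 3 lowest, and week 0 lay below weeks 1 to 4. The rank correlation with week was -0.690 and missed the threshold (exact permutation p = 0.0694, adjusted p = 0.0694), while Pearson r was -0.784 (exact p = 0.0275, adjusted p = 0.0275). Over weeks 1 to 6 alone rho was -0.829 (exact p = 0.0583) and Pearson r -0.868 (exact p = 0.0333). Of the 2 further denominators, CD3- cells and the CD4- innate lymphoid phenotype, 1 thus passed (50%). Leaving out week 0 or week 3 gave a call (adjusted exact p = 0.0246 and 0.0480). Raising the KLRG1 threshold by 0.5 gave rho = -0.833 and a call (adjusted exact p = 0.0154), whereas thresholds fitted in each library gave rho = 0.357 (adjusted exact p = 0.389).

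KLRG1-bearing cells of the colon changed from mostly these cells to mostly T cells. Over weeks 0 to 7 members made up 63.4%, 66.5%, 28.7%, 17.4%, 7.31%, 8.48%, 6.64% and 1.99% of all KLRG1+ cells. CD3+CD4+ cells made up 0%, 1.31%, 43.8%, 67.6%, 72.4%, 68.0%, 66.3% and 91.1% of them. The order of the populations turned between weeks 1 and 2. For every 100 CD3+CD4+ cells there were 458, 19.9, 7.85, 1.08, 0.979, 0.886 and 0.268 members in weeks 1 to 7. These are descriptions of values that the rule used, and no test was made on them.

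Anti-IL-12p40 at week 7 was accompanied by a member share far above that of untreated week 7. The treated library held 1000 members, 8.04% of its cells (7.57 to 8.53), against 28 members and 0.235% (0.156 to 0.340) in the untreated library. The ratio was 34.2 (23.5 to 49.7). Among CD3- cells the share was 27.1% (25.7 to 28.6) in the treated library and 1.97% (1.31 to 2.83) in the untreated one, a ratio of 13.8 (9.50 to 19.9). KLRG1 was carried by 53.8% (51.5 to 56.0) of the CD4- innate lymphoid phenotype with treatment, against 28.3% (19.7 to 38.2) without, a ratio of 1.90 (1.39 to 2.61). With thresholds fitted in each library this last ratio turned to 0.826, from 68.9% with treatment and 83.3% of 6 gated cells without. The same thresholds gave ratios of 64.0 over all cells and 26.8 over CD3- cells. This is 1 pool against 1 pool, so there is no replicate check and no test, and pool and treatment cannot be told apart.

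A difference counted as large if 3 conditions held: a ratio of 1.5 or more in either direction, separate intervals, and a treated value beyond the range of untreated weeks 5 to 7. All 3 member shares met this rule, but the KLRG1+ share of the CD4- innate lymphoid phenotype did not with thresholds fitted in each library. Over the 9 phenotypes 4 met it (44.4%), of which 3 were higher with treatment (33.3%). The counterparts were another of those 3, with 6.91% of cells in the treated library and 0.596% in the untreated one, a ratio of 11.6 (9.12 to 14.8). With treatment the share of all cells was 1.03 times that of untreated week 2. The treated share of CD3- cells lay above those of all 8 untreated weeks, the highest of which was 23.5% at week 1. There were 12.2 members for every 100 CD3+CD4+ cells in the treated library and 0.268 in the untreated one at week 7. Members made up 30.1% of KLRG1+ cells with treatment and 1.99% without.

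KLRG1 on the members themselves differed in level between libraries. In the treated library the members had a median KLRG1 count of 63, with quartiles of 32 and 100. In the untreated libraries the median was 76, 39, 27, 37, 26, 46, 38 and 41.5 counts at weeks 0 to 7. The centred log ratio had a median of 1.70 in treated members, against 1.68, 1.59, 1.20, 0.55, 0.58, 0.94, 0.76 and 1.00 in untreated members at weeks 0 to 7. On this scale treated members lay next to those of untreated weeks 0 and 1, and untreated members were lowest at weeks 3 and 4. The scale is relative to the cell's other proteins, and the KLRG1 counts of weeks 1 and 3 were close, at 39 and 37. Median CD3, CD11c and Ly-6G in members were 7, 10 and 13 counts at week 3, against 1, 2 and 1 at week 1. Their part in the lower centred log ratio of week 3 was not tested. Above a centred log ratio of 1 lay 78.0% of treated members. At untreated weeks 0 to 7 that held for 77.6%, 72.9%, 58.5%, 23.7%, 29.8%, 46.4%, 35.7% and 50% of members. Because the rule used KLRG1, these levels are a description.

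**Figure D2:**
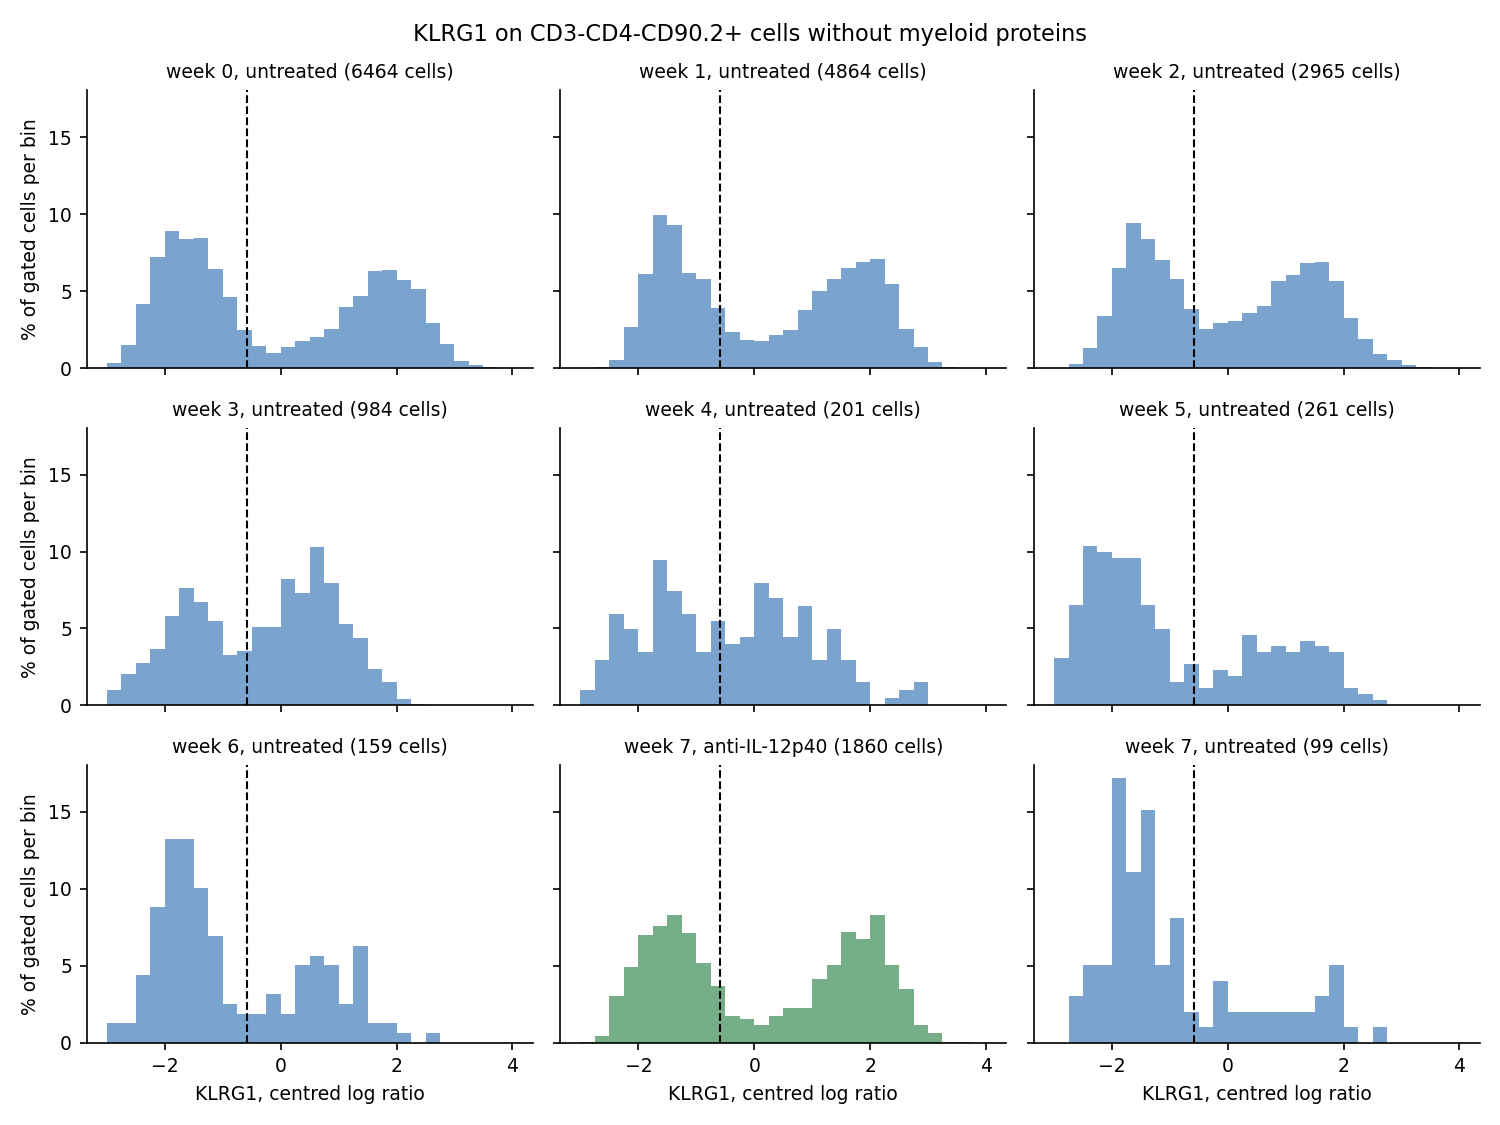
KLRG1 centred log ratio (x axis) of cells passing all the other 6 thresholds of the rule, as a percent of these gated cells per bin of 0.25 (y axis), in each of the 9 libraries. The dashed line is the threshold of -0.589. A KLRG1-low and a KLRG1-high hump with a dip between them occur in the treated library and at untreated weeks 0 to 3. Weeks 4 to 7 show them on 99 to 261 gated cells. The median of the cells above the line is 0.55 at week 3.

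The KLRG1 threshold lay between the low and the high hump, nearer to the low one. In the 0.25 units just inside it there were 427 cells over the 9 libraries, with a median of 3 KLRG1 counts. In the 0.25 units just outside there were 719 cells with a median of 2 counts. The counts at the threshold differed between libraries. Just inside, the median was 3 in the treated library and 4, 2, 2, 11.5, 6, 8, 8 and 8 at untreated weeks 0 to 7. Just outside, it was 2.5 in the treated library and 3, 1, 1, 9, 4, 8, 3 and 3 in the untreated ones. Weeks 4 to 7 had 2 to 10 cells just inside and 1 to 7 just outside. In all, 30.7% of treated members had a centred log ratio within 0.5 of any of the 7 thresholds. The share was 19.0%, 26.9%, 27.9%, 47.2%, 63.5%, 53.6%, 67.9% and 53.6% at untreated weeks 0 to 7.

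KLRG1+ cells also occurred among the phenotypes defined by CD64, CD11b or CD11c. Of CD3-CD64+ cells, 11.2% were KLRG1+ in the treated library. The share was 17.8%, 13.9%, 5.14%, 1.25%, 0.360%, 0.920%, 0.240% and 0.588% at untreated weeks 0 to 7. These cells had a median of 1000 antibody counts in the treated library and 1200 to 2666 in the untreated ones, above the members' 851.5 and 497.5 to 1160. The KLRG1+ ones among them had a median of 33.5 KLRG1 counts in the treated library (30 cells), against 63 in its members. At untreated weeks 0 to 7 their medians were 108.5, 50, 29, 53, 33, 104, 29 and 95, over 632, 363, 287, 25, 19, 11, 3 and 1 cells, and lay above those of the members in every week but week 6. This share was high in the libraries where members were many, and the part that shared droplets have in it was not tested. The rule keeps these cells out of the members through their CD64. Of CD3-CD64-CD11c-CD11b+ cells, 20.6% were KLRG1+ in the treated library. At untreated weeks 0 to 7 it was 38.3%, 36.3%, 31.0%, 15.1%, 4.73%, 5.33%, 2.07% and 2.98% of them. Of CD3-CD64-CD11c+ cells, 16.7% were KLRG1+ in the treated library, and 13.4%, 12.7%, 25.4%, 11.8%, 7.53%, 6.26%, 3.06% and 14.1% at untreated weeks 0 to 7.

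CD90.2 is a surface glycoprotein of T cells and innate lymphoid cells. Members had a median of 653 CD90.2 counts in the treated library, and 899, 398, 349, 472, 245, 303, 325.5 and 229 at untreated weeks 0 to 7. Counterparts had 905 counts in the treated library, and 897, 416, 337, 552, 378, 513.5, 526 and 682 at untreated weeks 0 to 7. The ratio of members to counterparts was 0.722 with treatment and lay between 0.855 and 1.04 at untreated weeks 0 to 3. It was 0.648, 0.590, 0.619 and 0.336 at weeks 4 to 7. The median of late members thus lay below that of late counterparts of the same library, while the lower quartiles lay closer together. Members and counterparts had lower quartiles of 142.75 and 149 counts at week 4, 182 and 198.25 at week 5, and 214 and 179 at week 6. At week 7 the members' quartiles were 158.25 and 390.75 counts (28 cells), against 194 and 1076.5 counts in the counterparts (71 cells).

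Total antibody counts differed as well. The members' median total, relative to that of their whole library, was 0.544 in the treated library and 1.06, 0.937, 0.665, 0.631, 0.544, 0.544, 0.427 and 0.399 at untreated weeks 0 to 7. The counterparts' was 0.657 in the treated library and 0.958, 0.887, 0.597, 0.691, 0.684, 0.637, 0.519 and 0.605 at untreated weeks 0 to 7. From week 3 on and with treatment the members' relative total was the lower of the pair, and at weeks 0 to 2 it was the higher. With every cell thinned to 200 counts, which left out 0.37% to 13.7% of the cells of a library, the ratio of CD90.2 was 0.90 with treatment. It was then 0.92, 0.91, 0.96, 0.93, 0.87, 0.76, 0.85 and 0.64 at untreated weeks 0 to 7. With thresholds fitted in each library the ratio at untreated week 7 was 2.13, on 5 members. CD90.2 chose the cells and was not tested.

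**Figure D3:**
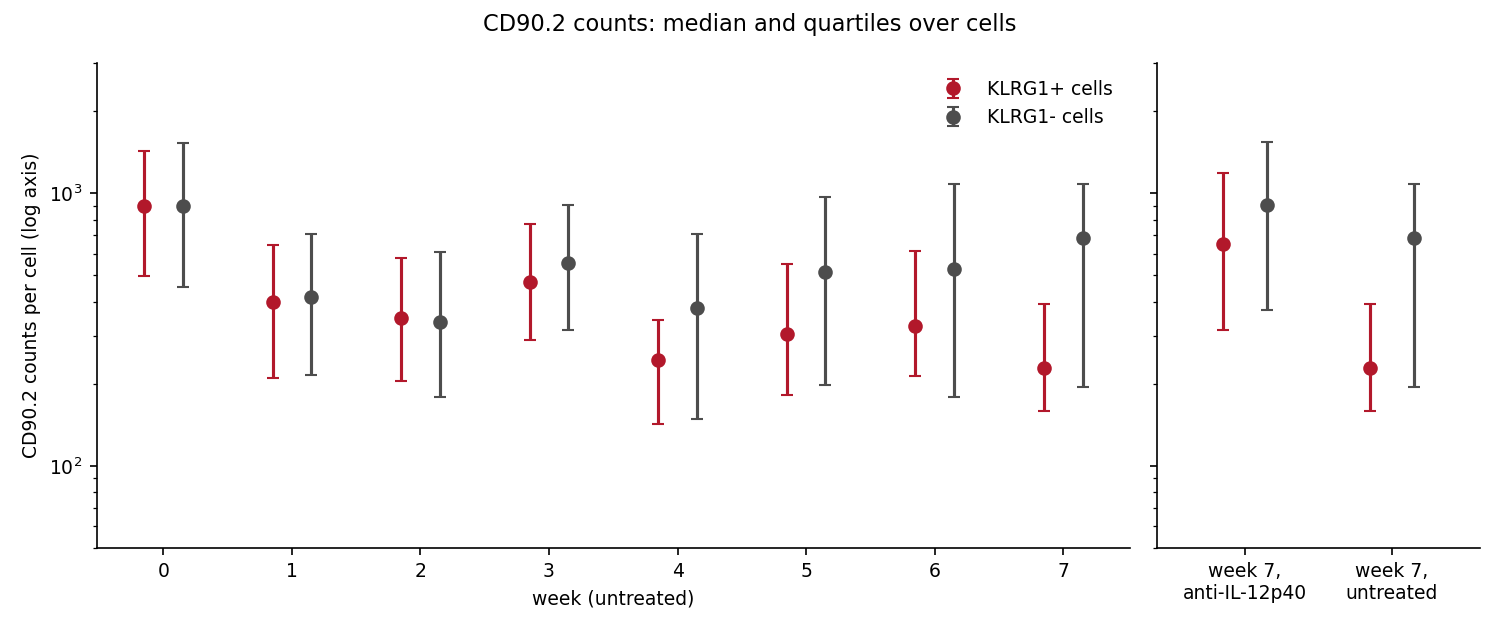
CD90.2 counts per cell (log axis) in KLRG1+ members and in KLRG1- counterparts, by week in untreated mice (left) and at week 7 with and without anti-IL-12p40 (right). Points are medians over the cells of 1 library and bars the quartiles. The medians coincide at week 0 (899 and 897) and stand apart at untreated week 7 (229 and 682).

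CD103, one of the proteins the rule did not use, was higher in members than in counterparts. CD103 is the alpha chain of an integrin that binds E-cadherin on epithelial cells and marks lymphocytes and dendritic cells close to the epithelium. Members had a median of 5 CD103 counts in the treated library, and 7, 3, 2, 10, 12.5, 19, 7 and 8 at untreated weeks 0 to 7. Counterparts had 3 counts in the treated library, and 3, 1, 1, 6, 3, 6.5, 7 and 5 in the untreated ones. Members were higher in 8 of 9 libraries, with equal medians at week 6, and the widest gaps were at weeks 4 and 5. CD3+CD4+ cells had 7 counts in the treated library and 5, 2, 1, 6, 4, 10, 7 and 8 counts in the untreated ones.

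Many members had CD103 counts that few counterparts reached. Above the 90th percentile of the counterparts lay 37.0% of treated members. At untreated weeks 0 to 7 it was 49.4%, 38.4%, 37.1%, 23.5%, 19.2%, 52.6%, 25% and 25% of members. The median centred log ratio of CD103 was 0.33 ± 0.32 higher in members than in counterparts (SD, n = 9 libraries), and higher in 7 of 9. That difference passed an exact two-sided sign-flip permutation test over the 9 libraries with Benjamini-Hochberg adjustment over the 4 proteins (adjusted p = 0.0156). All 4 of the proteins passed it in one direction or the other (100%), so passing sets none of them apart.

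KLRG1 itself enters the cell's mean log count, and its high count in members lowers the centred log ratio of every other protein. Centring each cell over the 10 antibodies other than KLRG1 removes this. The CD103 difference was then 0.61, higher in 9 of 9 libraries (0.25 to 1.13), with an adjusted exact permutation p of 0.0156. With each cell thinned to 200 counts and KLRG1 kept in the centring, the CD103 difference was 0.165, with the members higher in 7 of 9 libraries. This thinned difference did not pass (adjusted exact permutation p = 0.105). The lowering by KLRG1 remains in it, so it is to be read against the 0.33 of the main centring and not against 0.61.

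CD127 was lower in members than in counterparts by the centred log ratio, with a difference of -0.35 ± 0.15 (SD, n = 9), lower in 9 of 9 libraries (adjusted exact permutation p = 0.00521). In counts the medians were 9 in members and 13 in counterparts of the treated library. At untreated weeks 0 to 7 counterparts had 15, 8, 5, 15, 9, 10, 8 and 11 CD127 counts, and members stood below them in every week but week 2, where both had 5. Centred without KLRG1 the difference was -0.07 and did not pass (adjusted exact permutation p = 0.188; lower in 6 of 9). It passed on the natural log of the count plus 1, which is not adjusted for total counts (-0.14; adjusted exact permutation p = 0.0156; lower in 8 of 9). It also passed with each cell thinned to 200 counts (-0.21; adjusted exact permutation p = 0.0156; lower in 8 of 9). Thinned cells were still centred over all 11 antibodies, so the lowering by KLRG1 remains in that value. Few members reached the highest CD127 counts of the counterparts: 0% to 4.88% of the members of a library exceeded the counterparts' 90th percentile.

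Ly-6C and Ly-6G, proteins of monocytes and neutrophils, were lower in members than in counterparts by this measure, with differences of -0.28 ± 0.09 and -0.33 ± 0.06 in 9 of 9 libraries each (SD, n = 9; adjusted exact permutation p = 0.00521 for both). Centred without KLRG1 the differences were -0.0034 for Ly-6C (adjusted exact permutation p = 0.910) and -0.05 for Ly-6G (adjusted exact permutation p = 0.117). Members had a median of 57 Ly-6C counts in the treated library and 95, 63, 150, 247, 144, 131, 168 and 104.5 at untreated weeks 0 to 7. Counterparts had 60 in the treated library and 96, 65, 159, 266, 144, 134.5, 183 and 95 in the untreated ones. CD3+CD4+ cells had 61 with treatment and 64, 68, 168, 255, 147, 130, 176 and 103 without. Outside week 0, where 1 CD3+CD4+ cell was found, the 3 medians of a library lay close together. Ly-6G had medians of 2 counts in treated and 1 to 13 in untreated members, against 2 counts in treated and 1 to 14 in untreated counterparts.

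**Figure D4:**
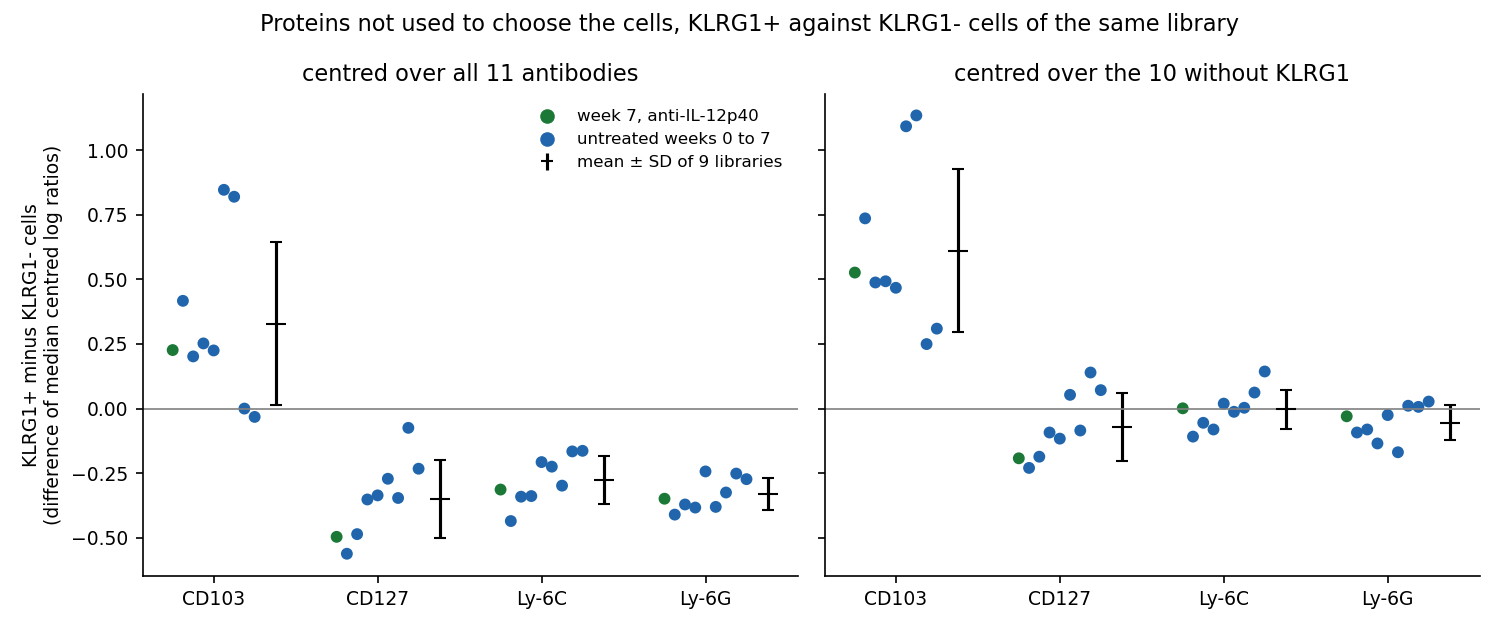
Difference of median centred log ratios, KLRG1+ members minus KLRG1- counterparts of the same library (y axis), for the 4 proteins the rule did not use, centred over all 11 antibodies (left) and over the 10 without KLRG1 (right). Points are libraries, from left to right treated week 7 and untreated weeks 0 to 7, and the bars are the mean ± SD of 9 libraries. With the second centring CD103 stays above 0 in all 9 libraries, with a mean of 0.61, and the other 3 proteins lie on both sides of 0.

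Within the members none of the 4 proteins had a rank correlation with week that passed the exact permutation test (0%), and 1 had an unadjusted p under 0.05. That was Ly-6G, with rho = 0.762 (exact p = 0.0368, adjusted p = 0.147) and Pearson r = 0.805 (exact p = 0.0192, adjusted p = 0.0768). With both end weeks left out its rho was 0.429 (exact p = 0.419) and its Pearson r 0.550 (exact p = 0.278). CD127 had rho = -0.595 (exact p = 0.132, adjusted p = 0.265) and Pearson r = -0.530 (exact p = 0.176, adjusted p = 0.351). Over weeks 1 to 6 alone it had rho = -0.886 (exact p = 0.0333) and Pearson r = -0.884 (exact p = 0.0111). Without week 7, whose 28 members are the fewest, CD127 passed with rho = -0.929 (adjusted exact p = 0.0270). On uncentred log counts its rho was 0.036, so the direction rests on the centring. CD103 had rho = 0.167 and Ly-6C rho = 0.048 (adjusted exact permutation p = 0.935 for both; Pearson r = 0.274 with exact p = 0.513 and -0.102 with exact p = 0.818). With both end weeks left out CD103 had rho = 0.371 (exact p = 0.497) and Pearson r = 0.486 (exact p = 0.342), and Ly-6C had rho = -0.20 (exact p = 0.714) and Pearson r = -0.278 (exact p = 0.614).

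Members with more and with less KLRG1 had equal median CD103 counts at weeks 0 to 2 and stood furthest apart in CD103 at weeks 4 and 5. The split, at a KLRG1 centred log ratio of 1, was chosen after the values were seen and has no test. At weeks 1 and 2 both sides had medians of 3 and 2 CD103 counts. At week 0 the 2416 members above it had a median of 7 CD103 and 13 CD127 counts, and the other 697 had 7 and 12. In the treated library the 780 members above it had 6 CD103 and 9 CD127 counts, and the other 220 had 4 and 9. At weeks 3, 6 and 7 the members above it had 7, 6 and 6.5 CD103 counts, and the others had 11, 9.5 and 9. At week 4 the 31 members above it had 6 CD103 counts and the other 73 had 23. At week 5 the 45 members above it had 9 CD103 counts and the other 52 had 45.5. The high CD103 medians of weeks 4 and 5 thus came from members with less KLRG1. Median CD3 was 3 counts on both sides at week 4, and 4 counts above and 3 below the split at week 5. The rule kept CD3 low on both sides, so these CD3 counts do not test what the cells are.

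Single conditions of the rule kept some cells out. In the treated library 860 cells failed on KLRG1 alone, 196 on CD3 alone, 116 on CD90.2 alone and 86 on CD11c alone. At untreated week 7 the numbers were 71 on KLRG1, 0 on CD3, 20 on CD90.2 and 22 on CD11c. At week 0, 421 cells failed on CD11c alone, and at week 6, 141 failed on CD4 alone, against 56 members in that library.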

How the data were processed

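Antibody-derived tags of 9 surface protein libraries were used. The other 55 of the 64 samples of the series were not analysed here. The authors deposited raw counts of 11 TotalSeq antibodies for each barcode, as whole numbers without scaling. Tools named in the submitters' processing notes are Cell Ranger 6.0.2 and Seurat 4.1.1, and the build is mm10. The rule by which barcodes were kept before deposit was not given in the sources used.

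Barcodes with fewer than 50 counts or above the 99th percentile of their library's totals were left out, which kept 130442 of 131917. Doublets were neither called nor removed. Members were cells passing the 7 thresholds given in the report, and all 11 antibodies are named. The members, lists and thresholds were chosen with earlier results of these data known.

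Cells were divided into 9 exclusive phenotypes: the members, their KLRG1- counterparts, CD3-CD4+CD90.2+, CD3+CD4+, CD3+CD4-, CD3-CD64+, CD3-CD64-CD11c+ and CD3-CD64-CD11c-CD11b+ cells, and all others. Trends used Spearman's rho with two-sided exact permutation p. Levels are medians over at least 20 members, compared within libraries by a two-sided exact sign-flip test over 512 patterns, whose smallest p is 0.00390625. Adjustment was by Benjamini-Hochberg at 0.05. Trend p-values come from reordering the untreated libraries, and sign-flip p-values from switching the signs of the within-library differences. With 1 pool per condition, neither measures the spread between pools. The steps were tested on simulated data. Alternatives covered thresholds, thinning to 200 counts, count filters, centring and leaving out each library. Computation ran in Python 3.11.15 with scipy 1.17.1, scikit-learn 1.9.0, pandas 2.3.3, numpy 2.4.6 and, for figures, matplotlib 3.10.9.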

Additional observations from a re-analysis of the deposited data

How the results depend on the processing

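Of 234 alternative values over 14 results, 206 counted as the same. For trends and differences this meant the same call without a reversed direction, and for treated ratios a value inside the main ratio's interval. Some of the other 28 moved or reversed without a change of call, and the causes of the 28 were not tested. Precision is limited by the 28 to 104 members of the untreated libraries of weeks 4 to 7 and by 1 pool per condition. No paired analysis was possible because each week and treatment is 1 library, so that the labels give no replicates to pair between conditions. Members and counterparts were compared within libraries.

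The decline as a share of all cells kept its call under all 13 other settings (rho -0.976 to -0.905). With 1 week left out rho was -0.964 to -0.929, and for CD3- cells -0.929 to -0.786. The KLRG1+ share of the CD4- innate lymphoid phenotype passed with the KLRG1 threshold raised by 0.5 (rho = -0.833) or 1 (-0.929), the CD90.2 threshold raised by 0.5 (-0.762) and thinning to 200 counts (-0.810). It also passed with every threshold moved 0.5 towards the members (-0.786), a setting chosen after seeing the data, as was leaving out barcodes found in more than 1 library. With a Gaussian mixture fitted in each library it reversed (0.357), and with 1 week left out rho was -0.893 to -0.536. In the treated library over untreated week 7 that mixture gave ratios of 64.0 for all cells, 26.8 for CD3- cells and 0.826 for the KLRG1+ share, which rests on 83.3% of 6 untreated gated cells against 68.9% treated. Moving every threshold gave 51.0 for all cells.

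The CD127 trend passed where at least 50 members were asked for, which leaves out week 7 (-0.929), and reversed on uncentred logs (0.036). The Ly-6C trend reversed when centred without KLRG1 (-0.071). With 1 week left out the trends were -0.929 to -0.393 for CD127, 0.036 to 0.429 for CD103, -0.429 to 0.25 for Ly-6C and 0.643 to 0.857 for Ly-6G. Differences from the counterparts no longer passed when centred without KLRG1 for CD127 (-0.071), Ly-6C (-0.0034) and Ly-6G (-0.054), on uncentred logs for Ly-6C (-0.027) and Ly-6G (-0.028), and when thinned for CD103 (0.165). With 1 library left out they ranged over -0.386 to -0.325 for CD127, 0.264 to 0.373 for CD103, -0.291 to -0.257 for Ly-6C and -0.343 to -0.322 for Ly-6G, each still past the test.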
